A study of Homo sapiens with 6 samples.

Results

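Of the 6 arrays of the series, 2 carry the replicate number 1, control replicate 1 and aspirin replicate 1, and these were compared with the 4 arrays of replicates 2 and 3. All 6 hybridised total RNA from SCC25, a human cell line derived from an oral squamous cell carcinoma, and the replicate numbers are those of the sample titles. The 3 control arrays come from untreated cells and the 3 aspirin arrays from cells given aspirin at 2.0 mM, with growth for 72 h in both groups. Replicates 1 and 3 were on chip 1 and replicate 2 on chip 2. The labels do not say whether a replicate number stands for a separate culture, passage or day, so a p-value here reflects no more than how these 6 arrays vary, which may be technical. A single line of tumour cells in culture carries no stroma, vessels or immune cells of its own, and the RNA of a whole dish was measured, so fewer cells in a state and less RNA per cell cannot be told apart.

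Squamous carcinoma cells keep part of the programme of stratified epithelium, in which basal keratinocytes stop dividing, join through desmosomes and make the proteins of the cornified envelope, such as the small proline-rich proteins. The same cells can instead take on mesenchymal features, with N-cadherin, vimentin and secreted matrix proteins, a shift known as epithelial to mesenchymal transition. Interferon-stimulated genes and inflammatory cytokines are further groups that such cells are known to switch on and off.

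The arrays gave a signal for 34694 genes, with median signals of 101.9 to 127.0 intensity units over a background of 95.4 to 116 and 14691 to 15170 genes detected per array. The line's squamous identity was evident on every array: KRT5, KRT14, KRT6A, KRT17, TP63 and CDH1, keratins, a basal transcription factor and E-cadherin, were above background on all 6, and KRT6A lay between 13.48 and 13.76 on the log2 scale. Replicate 1 stood apart in descriptions of the arrays that used no test. The split was chosen with earlier results of these same arrays known, so this is no independent evidence. On the second principal component of the 16784 genes tested, which held 22.5% of the variance, control replicate 1 scored 32.3 and aspirin replicate 1 25.9, and the other 4 arrays scored -19.6 to -9.34. The first component, 59.2%, separated aspirin from control. Control replicate 1 correlated at 0.978 and 0.982 with the other controls, which correlated at 0.991 with each other; with aspirin these values were 0.981, 0.984 and 0.991.

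With treatment as a covariate, 845 of 16784 genes (5.03%) differed between replicate 1 and replicates 2 and 3 at an adjusted p under 0.05 (limma, Benjamini-Hochberg), 249 higher (1.48%) and 596 lower (3.55%) on replicate 1. At least 2-fold differences were found for 53 of the higher and 210 of the lower genes. All 845 had the replicate 1 array beyond both other arrays in both treatments, an order that 38.8% of all genes tested also showed. Of the calls 29.5% were higher, a share that fell to 11.7% when arrays were scaled by their medians instead of quantile normalized. The median difference over all genes was 0.02 on the log2 scale. The count was 278 without control replicate 1 and 453 without aspirin replicate 1, with 226 and 325 of the calls shared with the 845, and 557 without control replicate 3. With the array background estimated from all listed genes it was 48, with 32 shared. TIMP1, SPOCK1, NOTCH3, CDH2, CCL20 and MT1F still passed there, while SERPINB13, SBSN, MEG3, DAB2 and IL24 did not.

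The numbers of replicates could also be set against each other in pairs. Replicate 1 differed from replicate 2, across the chips, at 825 genes (4.92%), and from replicate 3, on the same chip, at 323 genes (1.92%), of which 285 were among the 825. Replicates 2 and 3, on different chips, differed at 0 genes in limma's test, where 1554 had an unadjusted p under 0.05 and the smallest adjusted p was 0.380. None of the 845 genes had opposite signs against replicate 2 and against replicate 3, which their array order given above already fixed. The within-chip comparison called 70 genes higher and 253 lower on replicate 1. This comparison has chip as a block, so the spread comes from all 6 arrays, with 2 residual degrees of freedom. Fitted on the 4 arrays of chip 1 alone, with 1 residual degree of freedom, the same differences gave 692 calls, 587 of them among the 845. An adjusted p given within chip 1 is that of the chip block unless the chip 1 arrays alone are named.

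The difference recurred in the 2 treatments, which share no array. Without aspirin 433 genes differed by at least 2-fold between control replicate 1 and the mean of the other controls, and 93.8% of them had the same sign among the aspirin arrays. For the 304 of these that were lower, the median difference was -1.25 in the controls and -0.79 with aspirin. For the 129 that were higher it was 1.25 in the controls and 0.45 with aspirin. At least 2-fold in both treatments were 25 genes higher and 112 lower. Across all genes tested, which are not independent replicates, the differences in the controls and with aspirin correlated at 0.487 (Pearson) and 0.379 (Spearman), and 62.3% had the same sign.

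**Figure D1:**
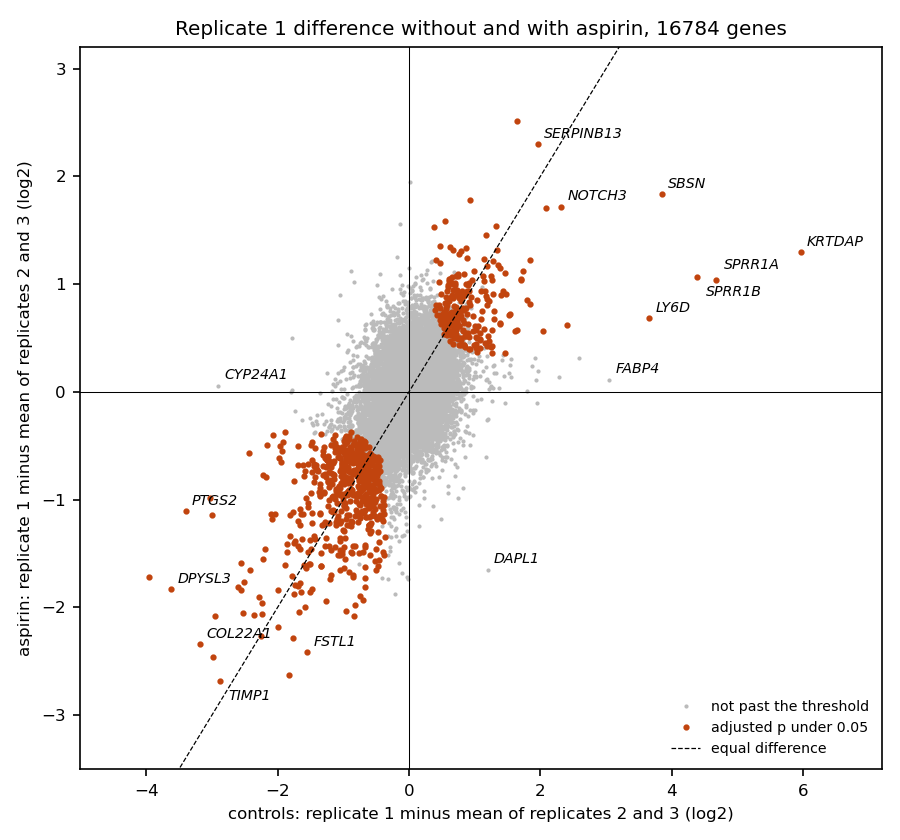
Difference of replicate 1 from the mean of replicates 2 and 3 in the controls (horizontal, log2) and with aspirin (vertical, log2), 1 point per gene for 16784 genes, with the 845 genes past the threshold in orange and the line of equal difference dashed. All orange points lie in the lower left or upper right quadrant, TIMP1 and SERPINB13 near the dashed line and KRTDAP far below it.

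The genes higher on replicate 1 were led by late keratinocyte genes. KRTDAP, a secreted peptide of differentiating keratinocytes, had a log2 signal of 12.26 in control replicate 1 against 6.49 and 6.12 in controls 2 and 3, and 7.79 against 6.70 and 6.28 with aspirin. Its level on replicate 1 was thus above the others in each treatment, by far more without aspirin, and the average difference was 3.63 ± 0.76 (SE, adjusted p = 0.0246). SBSN, suprabasin of the upper epidermal layers, stood at 9.30 against 5.49 and 5.41 in the controls and at 6.59 against 4.84 and 4.67 with aspirin, a difference of 2.84 ± 0.35 (adjusted p = 0.00204). SPRR1A and SPRR1B encode precursors of the cornified envelope whose sequences are close enough for probes to be shared. They were higher by 2.86 ± 0.60 (adjusted p = 0.0240) and 2.73 ± 0.55 (adjusted p = 0.0213), with SPRR1A 4.67 above the mean of the other arrays in the controls and at 8.36 against 7.36 and 7.27 with aspirin. Within chip 1, KRTDAP, SPRR1A and SPRR1B differed by 3.83, 2.95 and 2.91, with adjusted p of 0.111, 0.116 and 0.0979 under the chip block and of 0.000275, 0.000544 and 0.000241 on the chip 1 arrays alone. With the replicate numbers as pairs (replicate block) their adjusted p was 0.0594, 0.0587 and 0.0522, and LY6D and RPTN, described next, did not pass either (0.0756 and 0.0538). Without control replicate 1, SPRR1A, SPRR1B, LY6D and RPTN no longer passed.

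SERPINB13 (headpin), a protease inhibitor of squamous epithelium and the only higher gene among the 6 markers given with this split, had a difference of like size in both treatments. Its log2 signal was 9.84 in control replicate 1 against 7.91 and 7.86, and 8.83 in aspirin replicate 1 against 6.59 and 6.46. The difference of 2.13 ± 0.14 (4.37-fold, adjusted p = 9.82e-05) was 2.17 within chip 1 (adjusted p = 0.00337). NOTCH3, a Notch receptor, stood at 9.36 against 7.11 and 6.97 in the controls and at 9.37 against 7.75 and 7.55 with aspirin, 2.02 ± 0.17 higher (4.05-fold, adjusted p = 0.000232). RPTN, repetin, was above background on both replicate 1 arrays and on none of the other 4, at least 2.08-fold higher on average over the treatments (adjusted p = 0.0236). It stood at 6.77 against 4.34 and 4.41 in the controls, but at 4.98 against 4.28 and 4.45 with aspirin, a difference of 0.62 there. LY6D, a surface protein of stratified epithelium, was higher by 2.17 ± 0.50 (adjusted p = 0.0362). The other genes of the 15 with the largest positive differences were NDUFA4L2, a mitochondrial protein known from the hypoxia response, at 1.53 and, between 1.33 and 1.43, SGPP2, ANKRD22, the defensin DEFB1, the cystatin CSTA, NUPR1 and RRAD, all with the replicate 1 array highest in both treatments.

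The upstream regions of 5 of these genes are shown because a short motif occurs in many of the genes with the largest positive differences. Each is the 150 bases before the annotated start in RefSeq, GRCh38.p14, 5′ to 3′ on the gene's strand, with the AP-1 motif TGANTCA and the TATA motif TATAAA in capitals. The regions are KRTDAP at chr19:35490465-35490614 (minus), SPRR1A at chr1:152983931-152984080 (plus), SERPINB13 at chr18:63587193-63587342 (plus), RPTN at chr1:152159229-152159378 (minus) and, lower on replicate 1, TIMP1 at chrX:47582286-47582435 (plus).
KRTDAP: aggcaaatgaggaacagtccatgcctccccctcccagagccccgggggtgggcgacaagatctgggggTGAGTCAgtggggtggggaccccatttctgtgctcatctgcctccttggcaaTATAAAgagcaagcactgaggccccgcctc
SPRR1A: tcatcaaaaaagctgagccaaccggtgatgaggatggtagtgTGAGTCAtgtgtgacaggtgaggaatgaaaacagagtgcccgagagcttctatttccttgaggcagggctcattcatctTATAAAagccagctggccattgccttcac
SERPINB13: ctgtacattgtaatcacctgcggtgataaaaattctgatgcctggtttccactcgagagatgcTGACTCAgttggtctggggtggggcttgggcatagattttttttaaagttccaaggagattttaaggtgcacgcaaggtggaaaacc
RPTN: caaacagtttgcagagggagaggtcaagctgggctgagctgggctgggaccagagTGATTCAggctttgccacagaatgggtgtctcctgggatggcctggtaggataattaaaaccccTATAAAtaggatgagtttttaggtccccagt
TIMP1: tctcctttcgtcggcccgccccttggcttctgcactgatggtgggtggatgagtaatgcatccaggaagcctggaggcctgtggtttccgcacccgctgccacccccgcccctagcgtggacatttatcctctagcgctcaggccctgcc

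AP-1 is the family of FOS and JUN dimers, a known regulator of keratinocyte genes. TGANTCA, searched on both strands of 250 bases before the start, was found in 8 of the 10 higher genes that matched a promoter and in 0 of the 11 lower genes, and 6.573% of 35116 RefSeq promoters hold it. It begins 82 bases before the start in KRTDAP, 108 in SPRR1A, 87 in SERPINB13 and 95 in RPTN. TATAAA was found in 3 of the higher and 4 of the lower genes and in 10.72% of all promoters, and CCAAT in 1 and 6 and in 32.01%. No 2 of these motifs overlap in the regions shown. Exact matches alone were counted, so a near match such as the tgagtaa in the TIMP1 region was not. Of the higher genes with the AP-1 motif, SPRR1A, SPRR1B and RPTN lie near each other on chromosome 1. KRTDAP and SBSN are likewise near each other on chromosome 19, so these are not separate cases. These genes were matched out of 31 named and were chosen by their difference, so the counts describe the letters in these windows and are no test.

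Squamous differentiation genes as a list were higher on replicate 1 in 12 of 46 members tested and lower in 1. Their median difference was 0.34 against 0.02 over all genes. Over all genes tested 1.48% were higher and 3.55% lower, the shares beside which each list count below stands. Beside those above, the desmosomal cadherin DSC2 was at 10.09 against 8.60 and 8.64 in the controls and 9.78 against 8.71 and 8.64 with aspirin (1.28 ± 0.14, adjusted p = 0.00119). KRT16, a keratin of activated epidermis, was higher by 1.19 ± 0.17 (adjusted p = 0.00400) and the kallikrein KLK8 by 1.15 ± 0.16 (adjusted p = 0.00363). The lower gene, singled out after its value was seen, was another kallikrein, KLK6 (-0.66, adjusted p = 0.0449). LOR, FLG and CDSN, which mark terminal cornification, were above background on no array, and TGM1, the envelope's crosslinking enzyme, differed by 0.19 ± 0.17 (adjusted p = 0.587). The median was 0.59 in the controls and 0.11 with aspirin. Members called higher numbered 6 under the chip block, 13 on the chip 1 arrays alone, 3 without control replicate 1 and 18 without aspirin replicate 1.

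Of 9 squamous serpins tested, 2 were higher, SERPINB13 and SERPINB7 (1.02 ± 0.16, adjusted p = 0.00628). SERPINB3 and SERPINB4, near-identical genes whose signals may be mixed, differed by 0.57 and 0.46 (adjusted p = 0.0628 and 0.114). Of 25 genes of epithelial identity, 3 were higher and 22 did not pass, with a median of 0.25. The 3 were desmosomal: desmoplakin DSP (0.75 ± 0.14, adjusted p = 0.0140), DSG3 (0.69, adjusted p = 0.0216) and DSC3 (0.58, adjusted p = 0.0495, and 0.0612 with the replicate block). None of these 3 passed under the chip block or without either replicate 1 array, DSP passed on the chip 1 arrays alone (adjusted p = 0.0228), and each replicate 1 array was the highest of its treatment. KRT5, KRT14, KRT17 and TP63 differed by -0.15 to 0.25 and did not pass (adjusted p of 0.336 to 0.863).

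TIMP1, the tissue inhibitor of metalloproteinases, was the gene with the lowest adjusted p in the whole comparison. Its log2 signal was 8.79 in control replicate 1 against 11.66 and 11.66, and 9.17 in aspirin replicate 1 against 11.80 and 11.92. The groups lay far apart in both treatments, 2.78 ± 0.14 lower on replicate 1 (6.87-fold, adjusted p = 3.48e-05) and 2.81 lower within chip 1 (adjusted p = 0.00208). It was called under every alternative run, with differences of -3.45 to -2.69. Among 15 TIMPs and matrix metalloproteinases 4 were lower, against 3.55% of all genes tested, and 0 higher, with a median of -0.52. The gelatinase MMP9 was at 7.89 against 10.67 and 11.16 in the controls and 10.70 against 11.61 and 11.76 with aspirin (-2.01 ± 0.36, adjusted p = 0.0135). MMP1 and MMP2 were lower by 1.03 and 0.98 (adjusted p = 0.00817 and 0.00391). MMP2 was above background on all arrays of replicates 2 and 3 only, at least 1.61-fold. Without control replicate 1, TIMP1 was the only member of this list still called.

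**Figure D2:**
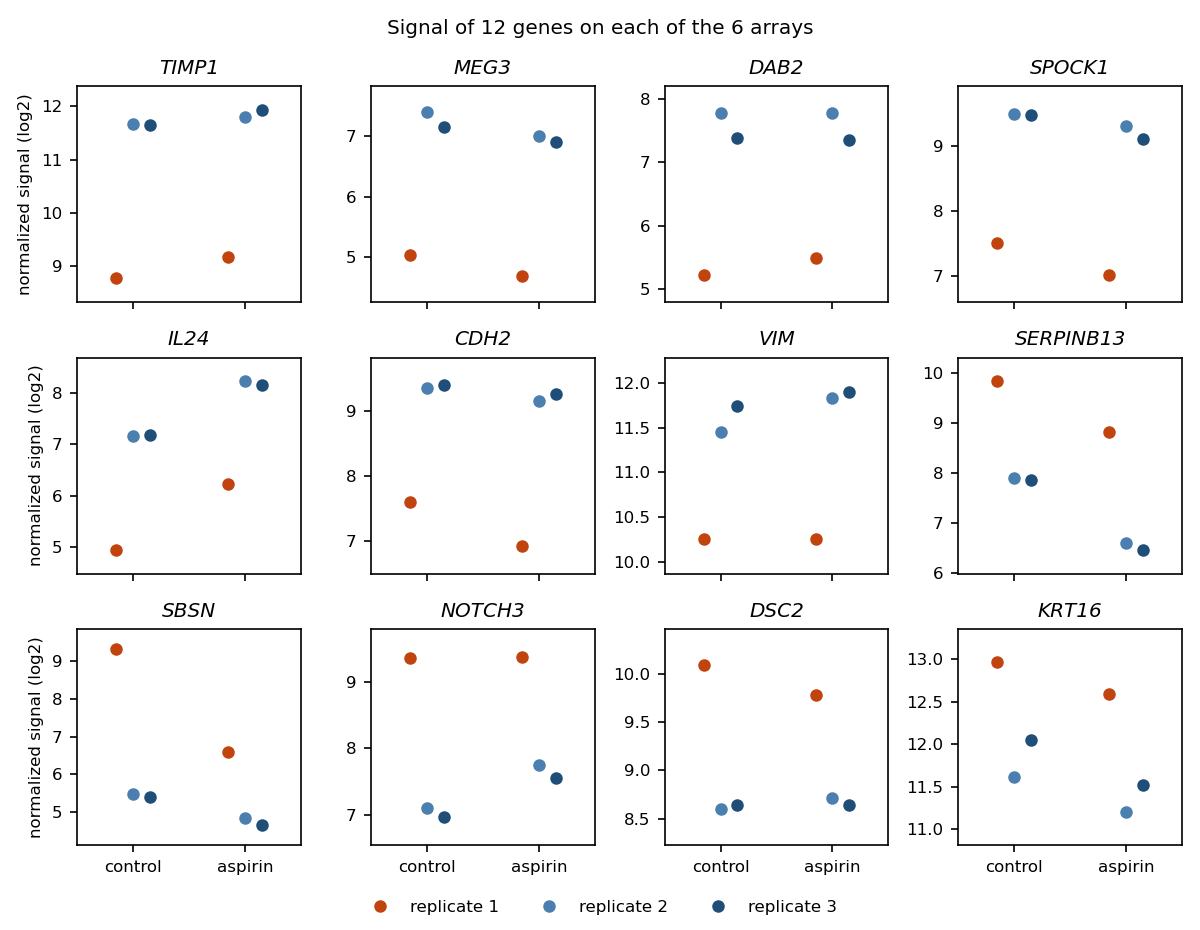
Normalized signal (log2, vertical axes, each gene on its own range) of 12 genes on the 6 arrays, controls left and aspirin right, coloured by replicate number. The replicate 1 point lies below both others in each treatment for TIMP1, MEG3, DAB2, SPOCK1, IL24, CDH2 and VIM and above them for SERPINB13, SBSN, NOTCH3, DSC2 and KRT16.

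Mesenchymal genes split into a few that were clearly lower and many that were not called. CDH2, N-cadherin, was at 7.61 against 9.35 and 9.40 in the controls and 6.93 against 9.16 and 9.26 with aspirin, a difference of -2.03 ± 0.16 (4.07-fold, adjusted p = 0.000204) that was -2.06 within chip 1 (adjusted p = 0.00462). CDH11, osteoblast cadherin, was above background on the 4 arrays of replicates 2 and 3 and on neither of replicate 1, at least 2.36-fold lower (adjusted p = 0.000204). The intermediate filament VIM was at 10.26 against 11.45 and 11.74 in the controls and 10.25 against 11.83 and 11.90 with aspirin, lower by 1.47 ± 0.15 (adjusted p = 0.000696). TWIST1, a transcription factor of the transition, was lower by 1.12 ± 0.15 (adjusted p = 0.00284), and the receptor kinase AXL by 0.90 ± 0.18 (adjusted p = 0.0193). These 5 of 18 tested were lower, against 3.55% of all genes tested, and 0 were higher. The list's median was still -0.03, since members such as LOX (0.54, adjusted p = 0.130) and NT5E (-0.58, adjusted p = 0.105) lay on both sides. Without control replicate 1, 4 members were lower and 2 higher. SNAI1, ZEB1 and ZEB2 were above background on no array. E-cadherin, CDH1, differed by 0.43 ± 0.16 (adjusted p = 0.165).

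Of 22 proteoglycan and matricellular genes 7 were lower on replicate 1, against 3.55% of all genes tested. Of the rest 1 was higher and 14 did not pass, and the list's median was -0.25. SPOCK1, a secreted proteoglycan and 1 of the 6 markers, was at 7.50 against 9.50 and 9.48 in the controls and 7.03 against 9.30 and 9.11 with aspirin (-2.08 ± 0.14, adjusted p = 9.82e-05). FSTL1, a follistatin-like glycoprotein, was lower by 1.98 ± 0.20 (adjusted p = 0.000650), thrombospondin THBS1 by 1.48 ± 0.19 (adjusted p = 0.00244) and NOV by 1.07 ± 0.14 (adjusted p = 0.00306). COL22A1, a collagen of tissue junctions, stood at 5.45 against 8.78 and 8.48 in the controls and 7.90 against 10.35 and 10.12 with aspirin, 2.76 ± 0.20 lower (adjusted p = 0.000159). AMTN, amelotin, an enamel-matrix protein, stood at 6.77 against 9.81 and 9.71, and 7.16 against 9.72 and 9.53, 2.72 ± 0.16 lower (adjusted p = 9.82e-05).

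Among 14 fibroblast markers tested 8 were lower, against 3.55% of all genes tested, with a median of -0.67 (-0.74 within chip 1). They were led by COL5A1 (-1.06 ± 0.15, adjusted p = 0.00363), lumican LUM (-0.98 ± 0.14, adjusted p = 0.00462), smooth muscle actin ACTA2 (-0.92 ± 0.15, adjusted p = 0.00837) and COL6A1 (-1.14 ± 0.19, adjusted p = 0.00934). None of the 8 calls was kept without control replicate 1 and 4 were made without aspirin replicate 1. The summed signal of the list was 7427 and 9018 on the replicate 1 arrays and 8889 to 13107 on the others. Of the 22 markers 6 were above background on no array: PDGFRA, PDGFRB, THY1, FBN1, DPT and DDR2. On replicate 1, 13 and 14 of the list were above background, and on the others 13 to 15.

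Few markers of other cell types were detected on enough arrays to be tested, and their part in the results above was not tested. Of members tested, 25% passed in the leukocyte list and 25% in the melanocyte and neural list, against 5.03% of all genes tested. Of 11 endothelial markers 4 were tested and 0 passed, and CDH5, KDR and CLDN5 were above background on no array, with summed signals of 76.9 and 77.7 on replicate 1 and 97.5 to 121 elsewhere. Of 13 leukocyte markers 4 were tested and CD14 alone passed (0.62 ± 0.14, adjusted p = 0.0339), while PTPRC, CD3D, CD3E and LYZ were above background on no array. CD14 lost its call in 13 alternatives, among them median scaling, the chip block and the chip 1 arrays alone. The summed leukocyte signal was 3740 and 4661 on replicate 1 and 5228 to 6014 elsewhere. Of 15 melanocyte and neural markers 4 were tested and TUBB3 alone passed (-1.11 ± 0.20, adjusted p = 0.0135), with MLANA, TYR and SOX10 above background on no array and summed signals of 409 and 478 on replicate 1 against 664 to 939. TUBB3 lost its call in 4 alternatives, the chip block among them. Of 7 pluripotency genes SOX2 alone was tested and did not pass (0.37, adjusted p = 0.343).

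Further large differences lay outside these groups. MEG3, an imprinted long noncoding RNA and 1 of the 6 markers, was at 5.03 against 7.40 and 7.15 in the controls and 4.69 in aspirin replicate 1, where the lower of the other arrays was at 6.91, 2.26 ± 0.14 lower (adjusted p = 9.82e-05). It was not above background in aspirin replicate 1, so the size of its difference is uncertain. The same limit held in control replicate 1 for SLC2A3, IL24, IL20, SGCE, CSF2, EGR2 and SPRY4. Among higher genes, H19 was not above background in aspirin replicates 2 and 3, nor SBSN and AXIN2 in aspirin replicate 3. DAB2, an endocytic adaptor and also a marker, was at 5.22 against 7.77 and 7.39, and 5.49 against 7.78 and 7.35, lower by 2.21 ± 0.18 (adjusted p = 0.000217). Both genes were thus well below the others on replicate 1, and neither passed the test for aspirin (adjusted p = 0.0944 for MEG3 and 0.788 for DAB2). Of 15 imprinted genes tested, SNRPN (-1.92 ± 0.14, adjusted p = 0.000159) and SGCE (-1.15 ± 0.17, adjusted p = 0.00497) were lower beside MEG3, and H19 was higher (0.74 ± 0.16, adjusted p = 0.0317), with a median near 0. H19 lost its call in 9 alternatives, with an adjusted p of 0.127 under the chip block and 0.0705 on the chip 1 arrays alone. Of 20 genes of WNT and endocytic adaptors DAB2 alone passed, a share of 5% that is near the 5.03% over all genes tested. DPYSL3, a protein of axon growth, was above background on the 4 arrays of replicates 2 and 3 only, at least 4.85-fold lower (adjusted p = 0.00149). SLFN11, a protein that blocks stressed replication forks, was at 5.85 against 8.76 and 8.86, and 5.91 against 8.08 and 7.89 (-2.52 ± 0.20, adjusted p = 0.000204). The glucose transporter SLC2A3 was lower by 2.29 ± 0.15 (adjusted p = 9.82e-05), the decoy receptor IL13RA2 by 2.23 ± 0.19 (adjusted p = 0.000232), and the reductase DHRS2 by 2.15 ± 0.14 (adjusted p = 9.82e-05). The hair keratin KRT81, near-identical to other hair keratins and so uncertain, was lower by 2.21 ± 0.18 (adjusted p = 0.000230).

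Interferon-stimulated genes were the list with the most calls. Of 43 tested 24 were lower on replicate 1, against 3.55% of all genes tested, and 0 higher, with a median of -0.73. In 39 the replicate 1 array was below both others in each treatment, an order that 18.8% of all genes tested showed. IFI44L was at 7.63 against 10.25 and 10.03 in the controls and 5.38 against 7.03 and 7.26 with aspirin, 2.14 ± 0.19 lower (4.40-fold, adjusted p = 0.000299). It was lower both on replicate 1 and on aspirin arrays. EPSTI1 was lower by 1.76 ± 0.14 (adjusted p = 0.000230), the ISG15 ligase HERC5 by 1.51 ± 0.15 (adjusted p = 0.000696) and the ISG15 protease USP18 by 1.28 ± 0.14 (adjusted p = 0.00108). The median was -0.85 in the controls, -0.53 with aspirin and -0.66 within chip 1. Calls numbered 10 under the chip block, 19 on the chip 1 arrays alone, 8 without control replicate 1, 18 without aspirin replicate 1 and 0 under the background estimated from all genes. Of 20 genes of MHC class I presentation 4 were lower, HLA-B (-1.12 ± 0.15, adjusted p = 0.00288), HLA-F (-1.01, adjusted p = 0.00328), HLA-G (-0.91, adjusted p = 0.00813) and the immunoproteasome subunit PSMB9 (-0.76, adjusted p = 0.0197). HLA genes share sequence, so their probes may not separate them, and 0 of the 4 were called without control replicate 1.

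Of 29 NF-kB targets and chemokines 9 were lower on replicate 1 (3.55% over all genes tested), 0 were higher and 20 did not pass (median -0.47). The chemokine CCL20 was at 7.95 against 10.53 and 10.46 in the controls and 9.53 against 11.39 and 11.34 with aspirin, lower by 2.19 ± 0.17 (adjusted p = 0.000204). CSF2, the growth factor GM-CSF, was lower by 1.89 ± 0.17 (adjusted p = 0.000336), CCL5 by 1.30 ± 0.15 (adjusted p = 0.00149), IL8 (CXCL8) by 1.50 ± 0.28 (adjusted p = 0.0150) and CXCL1 by 1.11 ± 0.20 (adjusted p = 0.0115). Calls numbered 3 under the chip block, 10 on the chip 1 arrays alone and 3 without control replicate 1. Of 19 cytokines of the IL-1 and IL-20 families and their relatives 6 were lower and 13 did not pass. The lower calls of this list were 3 under the chip block, 6 on the chip 1 arrays alone and 0 with the background of all listed genes. IL24, a member of the IL-10 superfamily and 1 of the 6 markers, was at 4.94 against 7.16 and 7.18 in the controls and 6.23 against 8.23 and 8.16 with aspirin, 2.10 ± 0.14 lower (adjusted p = 9.82e-05). It thus stood higher with aspirin in every pair while replicate 1 stayed lowest. IL20 and IL1B were lower by 1.26 ± 0.15 and 1.29 ± 0.21 (adjusted p = 0.00204 and 0.00863), and the receptor IL18R1, above background on replicates 2 and 3 only, by at least 1.60-fold (adjusted p = 0.00639).

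PTGS2, cyclooxygenase-2 and a target of aspirin, was at 7.13 in control replicate 1 against 10.62 and 10.43, and at 9.69 in aspirin replicate 1 against 10.76 and 10.84. The average difference was -2.25 ± 0.39 (adjusted p = 0.0108), and within chip 1 it was -2.23, with an adjusted p of 0.0813 under the chip block and 0.000166 on the chip 1 arrays alone. PTGS1, the constitutive enzyme, differed by -0.57 ± 0.15 (adjusted p = 0.0694). Of 20 prostaglandin pathway genes tested PTGS2 alone passed, a share of 5% that is near the 5.03% over all genes tested.

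Of 40 genes of mitosis and G2/M 13 were lower on replicate 1 (3.55% over all genes tested), 0 were higher and 27 did not pass. Their median was -0.66, with -0.31 in the controls and -0.92 with aspirin. The kinase AURKB was at 9.11 against 9.91 and 9.78 in the controls and 5.45 against 7.51 and 7.19 with aspirin (-1.32 ± 0.24, adjusted p = 0.0127), and NEK2 and KIF2C, a mitotic kinase and kinesin, were lower by 1.14 ± 0.18 and 0.96 ± 0.15 (both adjusted p = 0.00639). Of 35 DNA replication genes 9 were lower and 26 did not pass, with a median of -0.47. CDC45L, the helicase factor CDC45, was at 8.88 against 9.80 and 9.62, and 6.60 against 8.72 and 8.43 (-1.40 ± 0.23, adjusted p = 0.00910). The replicative helicase subunit MCM2 was lower by 0.91 ± 0.16 (adjusted p = 0.0116). Without aspirin replicate 1, 0 members of either list were called, and without control replicate 1, 17 and 11 were. Within chip 1 the medians were -0.63 and -0.49, with 2 calls in each list under the chip block and 15 and 9 on the chip 1 arrays alone. No member of either list had an interaction of aspirin with replicate 1 past the threshold.

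Calls were also found among signalling targets, where the share over all genes tested was 5.03%. Of 26 AP-1 and immediate early genes 6 were lower, among them the AP-1 subunit JUN (-0.89 ± 0.13, adjusted p = 0.00541), EGR2 (-1.06 ± 0.14, adjusted p = 0.00267), the ERK inhibitor SPRY4 (-1.01 ± 0.14, adjusted p = 0.00403) and the EGF receptor ligand HBEGF (-1.06 ± 0.18, adjusted p = 0.00892). Only 1 of these calls was made without control replicate 1. Notch genes moved in both directions, 3 of 17 higher and 3 lower: beside NOTCH3, HES2 was higher (1.03 ± 0.14, adjusted p = 0.00321), and MFNG, a Notch-modifying glycosyltransferase, and HEY2, a Notch target, were lower (-1.28 ± 0.16, adjusted p = 0.00214, and -1.04 ± 0.14, adjusted p = 0.00302). Of 17 Wnt targets 3 were lower, the extracellular Wnt antagonist SFRP1 (-0.95 ± 0.13, adjusted p = 0.00363), the Wnt inhibitor NKD2 (-0.98 ± 0.17, adjusted p = 0.00934) and the receptor FZD8 (above background on replicates 2 and 3 only, at least 1.45-fold, adjusted p = 0.0439). AXIN2 was higher (0.68 ± 0.14, adjusted p = 0.0266). The call was lost in 0 alternatives for SFRP1, 2 for NKD2, 9 for AXIN2 and 12 for FZD8. Of 22 TGF-beta targets 5 were lower, COL4A1 and COL4A2 among them (-0.71 and -0.88, adjusted p = 0.0218 and 0.0147), and of 23 YAP targets 2 (8.70%), AXL and NUAK2 (-0.67, adjusted p = 0.0246). The medians of both lists, -0.23 and -0.21, changed sign without control replicate 1, to 0.00 and 0.05.

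Of 8 metallothioneins tested, small metal-binding proteins, 4 were lower, against 3.55% of all genes tested, and 0 higher, with a median of -0.59. MT1F was at 8.70 against 10.27 and 10.34 in the controls and 8.48 against 10.11 and 10.07 with aspirin, 1.61 ± 0.13 lower (adjusted p = 0.000230), and MT1G was lower by 1.56 ± 0.13 (adjusted p = 0.000270). These genes are near-identical, so their signals may be mixed. Among 30 genes of cholesterol synthesis 3 were higher, against 1.48% of all genes tested. Among them were SREBF1 (0.64, adjusted p = 0.0384) and DHCR7 (0.71, adjusted p = 0.0454, and 0.0656 with the replicate block). Under the chip block 0 of the 30 were called, and 1 on the chip 1 arrays alone. With median scaling, 2 members of this list were instead lower and 0 higher. Of 19 glycolysis genes SLC2A3 and ENO2 (-0.77, adjusted p = 0.0164) were lower. Beside the endothelial and pluripotency lists, 0 genes passed in 5 lists: 21 hypoxia genes, 21 of the unfolded protein response, 27 NRF2 and glutathione genes, 20 integrins and laminins and 34 ribosomal proteins, with medians from -0.18 to 0.07. Each of the lists of heat shock proteins (HSPB8, -0.81, adjusted p = 0.0249), p53 targets (SESN1, 0.57, adjusted p = 0.0371), ATF4 targets (SLC38A2, 0.82, adjusted p = 0.0444) and housekeeping genes (GUSB, 0.80 ± 0.14, adjusted p = 0.00954) had 1 call. That is 4.17% to 5.88% of the members tested, near the 5.03% over all genes tested. Of 22 cadherins and claudins CDH2 and CDH11 were lower and CLDN7 higher (0.67, adjusted p = 0.0460). With the replicate block SLC38A2 and CLDN7 did not pass (adjusted p = 0.0571 and 0.0554).

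**Figure D3:**
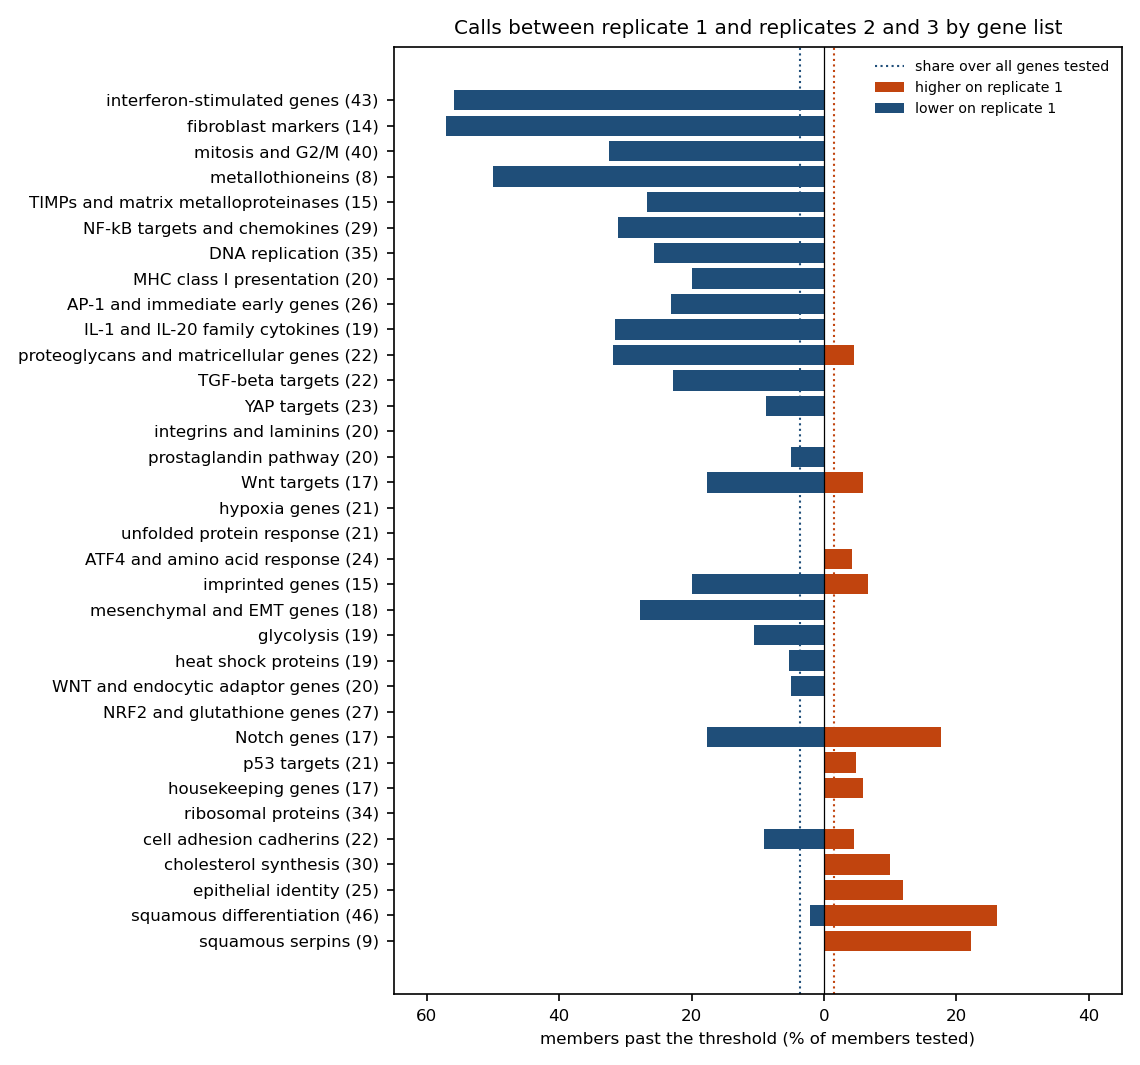
Share of the members tested in each gene list (number tested in brackets; lists with at least 8) that were past the threshold, lower on replicate 1 to the left and higher to the right, in percent, with dotted lines at the shares of all genes tested, 3.55% and 1.48%, and lists ordered by their median difference. Interferon-stimulated genes (24 of 43) and fibroblast markers (8 of 14) reach farthest to the left and squamous differentiation (12 of 46) farthest to the right.

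Aspirin itself changed 4691 genes (27.9%) with replicate 1 as a covariate. Whether its effect differed on replicate 1 was asked with the interaction of treatment and replicate 1, where 10 of 16784 genes (0.0596%) passed, 3 with a more positive and 7 with a more negative aspirin change on replicate 1, and 1350 had an unadjusted p under 0.05. Each aspirin change on replicate 1 rests on 1 array per treatment, whose spread was assumed to be that of replicates 2 and 3. The changes mostly agreed in sign. Of 387 genes at least 2-fold higher with aspirin in replicates 2 and 3, all 387 were also higher in replicate 1, with medians of 1.25 and 1.24. Of 542 at least 2-fold lower, 530 were lower in replicate 1 (97.8%), with medians of -1.37 and -1.47. CYP24A1 was the only gene that changed at least 2-fold in opposite directions. The pairs share no array, and over all genes tested, of which 72.9% had the same sign, the changes correlated at 0.775.

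Keratinocyte differentiation genes had the largest interactions. KRTDAP changed with aspirin by -4.47 in replicate 1 and by 0.21 and 0.16 in replicates 2 and 3, a difference of -4.66 ± 0.35 (adjusted p = 0.0116). SPRR1A changed by -3.65, -0.13 and 0.09 (-3.63 ± 0.29, adjusted p = 0.0116), and SPRR1B by -3.70, -0.35 and -0.40 (-3.32 ± 0.34, adjusted p = 0.0242). These 3 genes were thus far lower with aspirin only in the replicate where the control was high. LY6D changed by -4.36, -1.73 and -1.05 (-2.97 ± 0.33, adjusted p = 0.0397), DAPL1, an epithelial differentiation-associated gene, by -3.83, -1.17 and -0.80 (-2.85 ± 0.28, adjusted p = 0.0242), and the fatty acid carrier FABP4 by -3.94, -1.14 and -0.87 (-2.93 ± 0.28, adjusted p = 0.0242). The aldehyde dehydrogenase ALDH3B2 changed by -2.36, -0.23 and -0.19 (-2.15 ± 0.25, adjusted p = 0.0477). FABP4 and ALDH3B2 were above background on the 3 control arrays and on no aspirin array, so their aspirin levels are not measured and the sizes of their changes and interactions are uncertain.

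The 3 genes with a more positive change were CYP24A1, PTGS2 and C4ORF7. CYP24A1, the enzyme that inactivates vitamin D, was at 4.59 in control replicate 1 and 6.32 in aspirin replicate 1, a change of 1.73, and fell by 1.43 and 1.04 in replicates 2 and 3 (2.96 ± 0.28, adjusted p = 0.0242). It was not above background in control replicate 1, so the size of its change there is uncertain. PTGS2 changed by 2.56, 0.13 and 0.41 (2.29 ± 0.27, adjusted p = 0.0477). C4ORF7, currently FDCSP, was above background on neither replicate 1 array and fell by 2.34 and 2.12 in replicates 2 and 3 (2.24 ± 0.27, adjusted p = 0.0477), so its change on replicate 1 was not measured. Of the 10 genes, 6 also differed in the average over treatments.

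**Figure D4:**
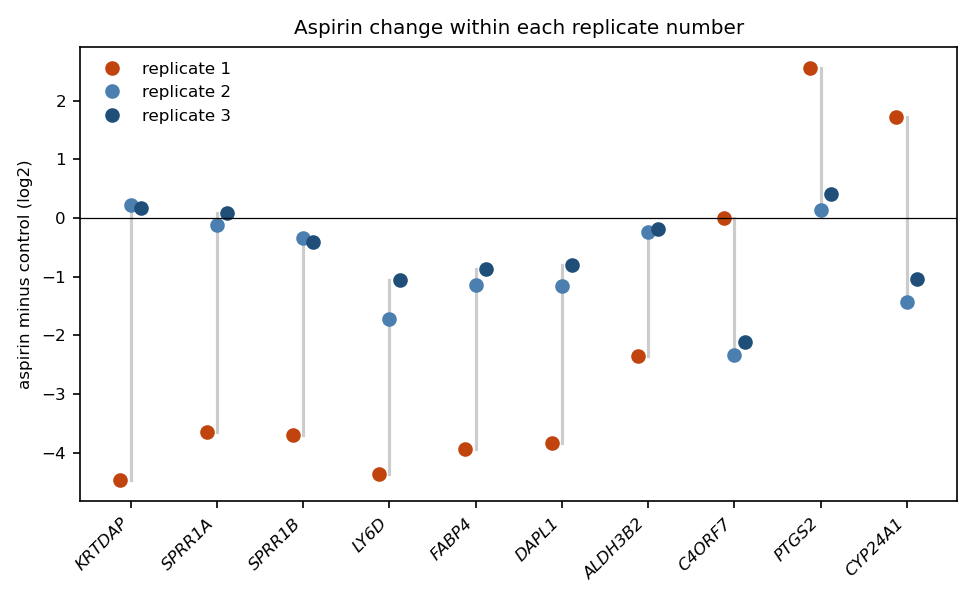
Aspirin minus control (log2) within each replicate number for the 10 genes whose aspirin change differed between replicate 1 and replicates 2 and 3, 1 point per pair of arrays. For 7 genes the replicate 1 point lies lowest, and for C4ORF7, PTGS2 and CYP24A1 it lies highest, while replicates 2 and 3 lie close together.

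Of the 9 genes chosen for the aspirin effect, PTGS2 alone had an interaction past the threshold. GDF15, a stress-induced cytokine, changed by 4.52, 4.20 and 4.33 in replicates 1 to 3 (difference 0.26 ± 0.28, adjusted p = 0.869). FGFBP1, a carrier of fibroblast growth factors, changed by -4.54, -3.99 and -4.17, and TGM1 by -3.93, -4.19 and -3.89 (adjusted p of 0.717 and 0.968). The mitotic kinesin KIF20A changed by -4.86, -3.87 and -4.02 (-0.91 ± 0.26, adjusted p = 0.485), IL8 by -0.31, -1.75 and -1.78 (1.46 ± 0.32, adjusted p = 0.357), and PTGS1 by -1.48, -1.04 and -1.34 (-0.29 ± 0.30, adjusted p = 0.864). MYC and CCND1 differed in their change by 0.77 and -0.09 and did not pass (adjusted p = 0.542 and 0.968). By lists, the median aspirin change in replicates 1 to 3 was -2.91, -2.40 and -2.55 for mitosis genes, -0.85, -0.97 and -0.99 for interferon-stimulated genes and -0.65, -0.13 and -0.07 for squamous differentiation genes. Of the 46 squamous differentiation genes 3 were among the 10 calls, and of the mitosis and interferon lists 0.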

How the data were processed

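Total RNA was labelled with biotin and hybridised to Illumina expression arrays, 6 in all. The authors deposited, per the file headers, a signal intensity per gene and array that was neither normalized nor background subtracted, and the submitters' processing notes name GenomeStudio 1.9.0. The sources used here state neither a build nor the probes. The detection columns, p-values per the file headers, run upward with signal (mean 0.994 for the 1000 brightest genes, 0.170 for the 1000 dimmest), so they were read as a deposited detection score. The value table of the series matrix holds background-subtracted intensity under row names that shift, and its realigned values served only as an alternative.

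In R 4.3.3 with limma 3.58.1, signals were corrected by the normal-exponential model, with background inferred from the 27647 genes (79.7%) whose scores fall on whole steps of 1 in 770, then given an offset of 16, quantile normalized and put on the log2 scale. A zero signal removed 1 gene. To be tested, a gene needed scores above 0.95 on 2 or more arrays (16784, 48.4%). This left out 533 genes with clear signal but a low combined score, HLA-C, PDPN, KLK7 and IL1RN among them. The main fit (lmFit, eBayes, Benjamini-Hochberg over all genes) had treatment and replicate 1 as terms and 3 residual degrees of freedom. The interaction fit had 2, and pairwise contrasts used a 3-level replicate factor. A gene was above background where its score passed 0.95 or its signal exceeded the background mean by 3 SD. Where only 1 side of a comparison was above background, on all its arrays, the fold is a lower bound against the dimmest detected signal. On data simulated for the interaction, 26% of changes of 1 log2 unit and 100% of larger ones were recovered, and for the replicate contrast 100% at all sizes, with 50 genes per size. Unchanged genes made up 9 of the 172 calls for the interaction and 13 of the 213 for the replicate contrast. The simulated noise was normal and independent between arrays, without chip, background or single-array effects, so recovery on the real arrays may be lower.

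Same-numbered arrays deviated together from their group means (correlations 0.487, 0.488 and 0.298). Deviations cancel within a group, so where replicate 1 stands apart, the other arrays can deviate together without being paired. These correlations therefore cannot decide whether replicates 2 and 3 are pairs. Controls 2 and 3 correlated at 0.968 and 0.969 with the same-numbered aspirin array, against 0.964 and 0.967 across these numbers. Taking the numbers as pairs, as in the replicate block, was thus an assumption that the labels do not state. The main fit did not pair replicates 2 and 3. Named are the 15 largest differences in each direction past the threshold without overlap, leaving out provisional names, the 6 markers, up to 4 members of each list by smallest p, the 10 largest interactions, and 9 genes fixed for the aspirin effect. The replicate split, the markers, the 39 lists and this rule were chosen with earlier results of these data known, so they are no independent evidence. No test of lists was made. Other settings tried are given at the end. Gene names are the table's, of which 10415 tested ones are current RefSeq symbols, 1909 synonyms and 4460 neither.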

Additional observations from a re-analysis of the deposited data

Results flagged for a closer look

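For 10 genes the aspirin change on replicate 1 differed from that in replicates 2 and 3 by the interaction test. The differences, in log2 units, were -4.66 for KRTDAP, -3.63 for SPRR1A, -3.32 for SPRR1B, -2.97 for LY6D, -2.93 for FABP4, -2.85 for DAPL1, -2.15 for ALDH3B2, 2.96 for CYP24A1, 2.29 for PTGS2 and 2.24 for C4ORF7. KRTDAP, SPRR1A and SPRR1B passed in 13 of 15 alternatives each, missing only without a filter and with the deposited matrix. CYP24A1, FABP4 and DAPL1 passed in 12 of 15, LY6D in 11 of 15, PTGS2 and C4ORF7 in 9 of 15, and ALDH3B2 in 7 of the 14 that gave it a value. Replicate 1 has 1 array per treatment, so none of these differences has a replicate of its own on the replicate 1 side.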

How the results depend on the processing

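Of the 845 genes that differed between replicate 1 and replicates 2 and 3, 0 changed sign under any alternative. The alternatives use the same arrays or some of them, and the array order of these genes leaves little room for a change of sign. This is therefore no independent check. The number of calls was 48 with the background of all listed genes, 480 without a filter, 323 under the chip block, 692 on the chip 1 arrays alone, and 811 under the replicate block, 742 of them shared. Of the 110 called genes that the naming rule took, 10 lost their call under the replicate block: KRTDAP, SPRR1A, SPRR1B, LY6D, RPTN, DSC3, LTBP2, DHCR7, SLC38A2 and CLDN7. Leaving out 1 array gave 278 (without control replicate 1) to 748 (without aspirin replicate 3), with 453 without aspirin replicate 1 and 557 without control replicate 3. The other settings gave 631 to 1131. The background of all listed genes put its mean at 132 to 175, above each array's median. Of these 110 genes, 11 stayed called under it, 55 without control replicate 1 and 77 without aspirin replicate 1. Replicate 1 differed from replicate 2 at 0 genes with that background and 1533 with median scaling, and from replicate 3 at 0 and 553. The interaction called 10 genes, but 18 with an offset of 50, 2 without a filter, 0 with the deposited matrix, 27 with a trended prior, 6 under the replicate block and likewise 6 under the chip block, and 17 to 37 when 1 array of replicate 2 or 3 was left out. The cause of these shifts was not tested. The fit without a replicate 1 array has no interaction and was not run for it. Alternatives for the pairwise contrasts, for list counts and without replicate 3 were chosen after seeing the data.

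Among named genes, DAPL1 (main difference -0.23) was 0.27 with the background of all listed genes, 0.029 with an offset of 50, and -1.65 to 1.20 when 1 array was left out, 1.20 passing without aspirin replicate 1. CYP24A1 was -2.90 to 0.058 when 1 array was left out, 0.058 without control replicate 1. In the aspirin interaction, the background of all listed genes turned GDF15 to -0.36, KIF20A to 0.28 and TGM1 to -0.14. Leaving out 1 array gave -0.14 to 0.36 for TGM1 and -0.21 to 0.036 for CCND1. List medians with a sign that depended on the setting were those of imprinted, WNT adaptor, p53, glycolysis, ATF4, unfolded protein, NRF2, heat shock, Notch, cadherin, housekeeping, integrin, TGF-beta and YAP genes. The number of arrays limits all of these values.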
